A study of Mus musculus with 17 samples.

Results

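The genes of adenosine signalling were examined in the hippocampus of mice kept awake and of mice left undisturbed. The group was defined by name as the receptors Adora1, Adora2a, Adora2b and Adora3, the enzymes Ada, Adk, Nt5e and Entpd1, and the nucleoside transporters Slc29a1 and Slc29a2. Every probe set annotated with exactly 1 gene symbol from this list was taken, whatever its signal. That gave 18 of 45037 probe sets, for 7 of the 10 genes. The receptors Adora1, Adora2a and Adora2b were not analysed here, because no probe set carried their symbol alone in the annotation used.

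The animals were male C57BL/6J mice, 2 months old by the sample labels and 2 to 4 months by the growth protocol. Gentle handling in the home cage kept 8 of them awake over 5 h, while 9 stayed undisturbed in theirs over the matching hours. All had been handled daily for 6 days beforehand, and the order of dissection alternated between the groups. The RNA of each animal's hippocampus was hybridised to its own Affymetrix array, so that each of the 17 arrays is a separate animal. Since no mice were handled during those hours and then left to sleep, effects of lost sleep cannot be told apart from effects of handling. In whole tissue, fewer cells of a type and less RNA per cell cannot be told apart either.

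Adenosine is a breakdown product of ATP that builds up in the extracellular space of the waking brain and promotes sleep through its G protein-coupled receptors, which caffeine blocks. Outside the cell it is made when ectonucleotidases such as the product of Entpd1 strip phosphates from ATP and ADP and the 5'-nucleotidase encoded by Nt5e removes the last one from AMP. It crosses membranes through the equilibrative nucleoside transporters encoded by Slc29a1 and Slc29a2, and inside the cell it is phosphorylated by adenosine kinase (Adk), which in the adult forebrain is chiefly an astrocyte enzyme, or deaminated to inosine by adenosine deaminase (Ada).

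The start site regions of the only measured receptor and of the gene with the brightest probe set are shown because they differ in composition. Both come from the RefSeq promoter table of assembly GRCm38.p6, as the 250 bases before an annotated start, 5' to 3' on the plus strand, with every match to the GC box GGGCGG or its reverse complement in capitals. Adora3 has 1 annotated start on chromosome 3, and its window runs over chr3:105904171-105904420. Adk has 2 starts on chromosome 14, at chr14:21052324-21052573 and chr14:21075902-21076151.
Adora3: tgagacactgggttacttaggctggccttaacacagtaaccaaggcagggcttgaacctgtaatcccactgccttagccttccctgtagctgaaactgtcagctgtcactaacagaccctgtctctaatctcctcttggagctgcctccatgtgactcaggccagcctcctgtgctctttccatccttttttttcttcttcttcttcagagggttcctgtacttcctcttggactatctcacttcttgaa
Adk, first start: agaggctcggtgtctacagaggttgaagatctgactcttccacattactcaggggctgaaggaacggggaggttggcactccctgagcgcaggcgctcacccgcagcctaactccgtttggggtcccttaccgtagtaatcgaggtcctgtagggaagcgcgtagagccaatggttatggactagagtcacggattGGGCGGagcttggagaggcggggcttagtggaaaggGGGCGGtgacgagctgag
Adk, second start: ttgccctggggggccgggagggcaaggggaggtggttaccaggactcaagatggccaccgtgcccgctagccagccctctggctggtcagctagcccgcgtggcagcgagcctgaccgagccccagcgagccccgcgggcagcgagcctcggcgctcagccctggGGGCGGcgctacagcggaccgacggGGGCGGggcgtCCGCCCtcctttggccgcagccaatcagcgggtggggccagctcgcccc

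Over the whole table window of 300 bases, which adds 50 bases after the start, Adora3 held 1 CpG and 0 GC boxes. Only 14.1% of the 32841 mouse windows in the table held as few CpGs, against a median of 7. The Adk windows held 21 and 33 CpGs and 4 GC boxes each, and 35.7% of all windows held at least 1 GC box. The table had 19 windows for 9 of the 10 genes, and 12 of them held a GC box. Many of the 19 belong to Slc29a1, and some of its windows overlap, so counts of windows are not counts of genes. An E-box (CACGTG), the motif bound by the clock factors, was in 1 of the 19 and in 7.15% of all windows. The core TGACG of the cAMP response element was in 4 of the 19 and in 20.8% of all windows. All motifs were searched on both strands, and a match describes the letters only.

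The tissue was checked against markers. All 17 measured markers of hippocampal pyramidal and granule neurons lay above the level of silent genes defined below, with list means of 10.15 to 10.35 in undisturbed and 10.05 to 10.36 in sleep-deprived arrays (log2 signal). Means of 16 striatal markers were 7.08 to 7.21 and 7.07 to 7.20. Choroid plexus, a tissue at the edge of the dissection, varied most: the mean of its 14 markers ran from 5.58 to 6.91 in undisturbed and from 5.59 to 7.11 in sleep-deprived arrays. It was above 6.5 in 5 arrays, undisturbed 4 and 9 and sleep-deprived 3, 5 and 7. The mean of 14 meninges and fibroblast markers ran from 7.54 to 8.82 in undisturbed and from 7.77 to 8.47 in sleep-deprived arrays. Array medians were 6.13 to 6.22. The signal of 3' minus 5' control probe sets, a sign of RNA degradation, was 0.42 in sleep-deprived array 5 and 0.20 to 0.30 in the others.

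None of the 18 probe sets differed between sleep-deprived and undisturbed mice at an adjusted p under 0.05 (limma, Benjamini-Hochberg over all probe sets), and 0 of the 18 had an unadjusted p under 0.05. Over the whole array 1.81% of probe sets passed, 0.584% higher and 1.23% lower, and 15.3% had an unadjusted p under 0.05. At the level of genes, each read through its brightest probe set, 0 of 7 passed (limma), against 3.97% of 18193 genes (1.25% higher and 2.73% lower). With so few members, a count of 0 is near that background. The differences, in log2 units and always as the sleep-deprived minus the undisturbed mean, ran from -0.11 to 0.11, with 10 positive and 8 negative. The median of these differences was 0.015, near the 0.011 of all probe sets. Their median size was 0.033, and that of all probe sets 0.058.

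The intervals bound what could have been missed. Across the 18 probe sets the 95% intervals reached from -0.23 to 0.27, that is from 1.17-fold lower to 1.20-fold higher. Among all probe sets the smallest difference that passed was 0.15 in size. The intervals of several members, Entpd1, Adora3 and Ada upwards and Adk and Nt5e downwards among them, extended past that size, so shifts as large as some that passed elsewhere are not excluded for them. For dim probe sets an interval bounds the signal rather than the transcript.

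**Figure D1:**
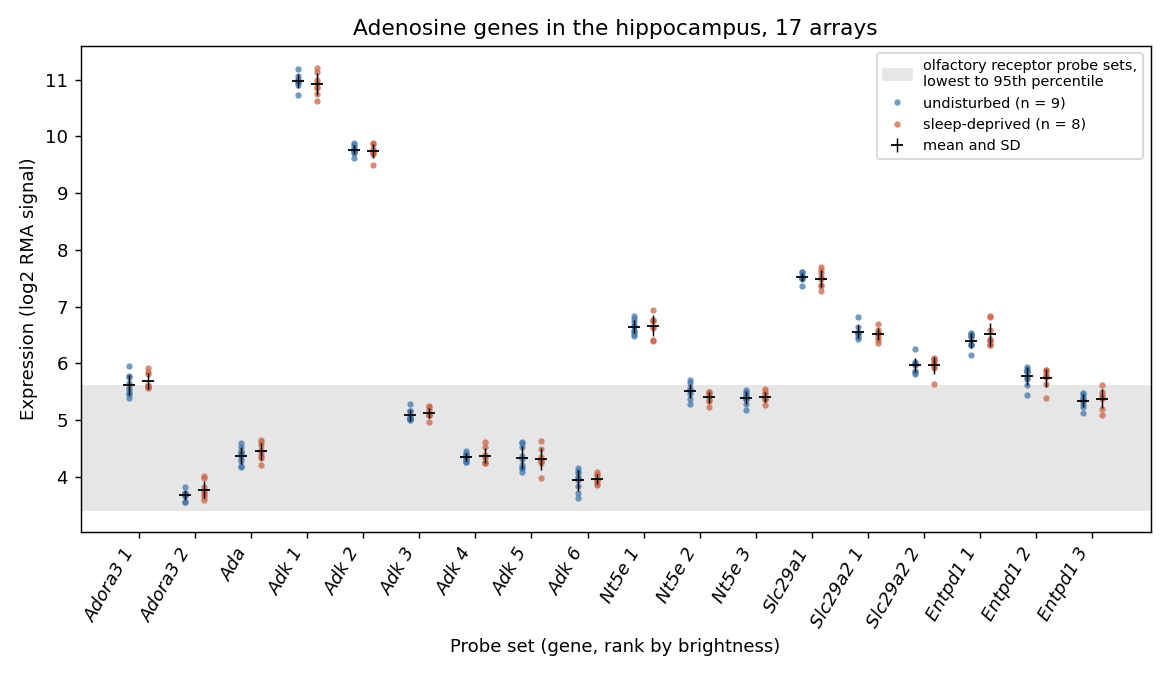
Log2 signal (vertical axis) of each of the 18 probe sets in the 9 undisturbed (blue) and 8 sleep-deprived (orange) arrays, with bars for the mean and SD. The grey band spans the olfactory receptor probe sets from the lowest, 3.42, to the 95th percentile, 5.61. The groups overlap in every probe set, and 9 of the 18 means lie in the band.

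RMA values carry no detection call, so olfactory receptor genes, a family mostly silent in brain, were used as a reference for dim signal. Their 44 probe sets had mean levels of 3.42 to 6.00, with a 95th percentile of 5.61. By that measure 9 of the 18 probe sets stood above dim signal: 2 each of Adk, Slc29a2 and Entpd1 and 1 each of Adora3, Nt5e and Slc29a1. Probe sets differ in how well they bind, so these levels do not rank the genes by transcript number.

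**Figure D2:**
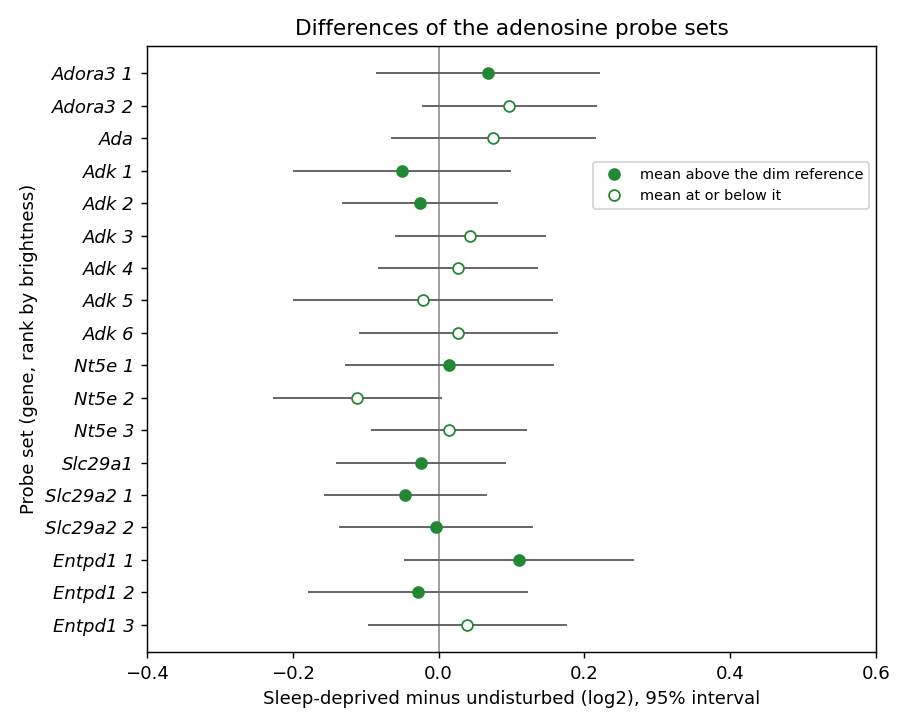
Difference between sleep-deprived and undisturbed means (log2, horizontal axis) with its 95% interval for each of the 18 probe sets. Filled points mark means above the 95th percentile of the olfactory receptor probe sets, and open points the rest. Every interval includes 0, and the extreme differences are -0.11 and 0.11.

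The only receptor measured was Adora3, which couples to inhibitory G proteins and in mouse brain is known mainly from microglia. Its brighter probe set (1429609_at) read 5.38, 5.58 and 5.95 in undisturbed mice and 5.56, 5.61 and 5.92 in sleep-deprived mice, each time as the lowest, median and highest array. This signal sits at the upper edge of the dim reference, and the sleep-deprived range lies inside the undisturbed one. The difference was 0.068 (SE 0.074, 95% interval -0.086 to 0.22, limma adjusted p = 0.71), and only 3 of 8 sleep-deprived arrays lay above the undisturbed mean. The second probe set (1430482_at) was well within dim signal, at 3.68 ± 0.079 (SD, n = 9) and 3.77 ± 0.15 (SD, n = 8). Its difference was 0.097 (limma adjusted p = 0.44), and its deviations did not follow those of the first (r = -0.27 over 17 arrays after removing group means). The brighter probe set correlated with the mean of 13 microglia markers at r = 0.54 and rho = 0.46 (permutation p = 0.041 and 0.086, 0.28 and 0.33 after adjustment over 56 relations). Within groups r was 0.80 (undisturbed) and -0.13 (sleep-deprived).

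Among the ectoenzymes, Entpd1, which starts the breakdown of extracellular ATP and is known from microglia and vessels, had the largest positive difference of the group. Its brightest probe set (1423326_at) read 6.14, 6.46 and 6.54 in undisturbed and 6.32, 6.41 and 6.83 in sleep-deprived mice (lowest, median, highest). The means differed by 0.11 (SE 0.076, 95% interval -0.047 to 0.27, limma adjusted p = 0.52), whereas the medians differed the other way. The difference in means came from 3 sleep-deprived arrays, 3, 5 and 7, which read 6.81, 6.83 and 6.58, while the other 5 read 6.32 to 6.43. Array 5 was also the one with the high 3' minus 5' signal of 0.42, and whether RNA quality contributes to its reading was not tested.

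Those 3 arrays were the sleep-deprived ones with choroid plexus marker means of 7.10 to 7.11. Within the sleep-deprived group Entpd1 followed that mean (r = 0.91, 8 arrays), and within the undisturbed group it did not (r = -0.21, 9 arrays). In the sleep-deprived group it also followed the meninges (r = 0.79) and endothelium (r = 0.71) lists and ran against the hippocampal neuron list (r = -0.72), beside 0.080, 0.31 and -0.21 in the undisturbed group. Over both groups r was 0.56 (rho 0.56), with a permutation p of 0.043 and an adjusted p of 0.28 over 56 relations. Without the 5 arrays above 6.5, the Entpd1 difference turned to -0.047 (limma adjusted p = 0.90), and with the choroid plexus mean as a covariate it was 0.069. Whether tissue of any of these kinds contributes to the Entpd1 difference was not tested. The other Entpd1 probe sets gave -0.028 (1453586_at, mean level 5.76, limma adjusted p = 0.90) and 0.039 (1450939_at, mean level 5.36, limma adjusted p = 0.83), the last turning to -0.066 without those arrays.

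Nt5e, the enzyme that completes extracellular adenosine formation, gave a difference near 0 by its brightest probe set and a negative one by a dim set, neither past the test. The brightest (1422974_at) read 6.49, 6.66 and 6.84 in undisturbed and 6.40, 6.70 and 6.93 in sleep-deprived mice. The 2 groups centred on nearly the same value, with a difference of 0.015 (SE 0.069, 95% interval -0.13 to 0.16, limma adjusted p = 0.95). Its sign turned without the arrays high in choroid plexus markers, to -0.076 (limma adjusted p = 0.87). Like Entpd1, it correlated with the choroid plexus mean, at r = 0.57 and rho = 0.60. Permutation p was 0.035 and 0.018, or 0.28 and 0.26 after adjustment over 56 relations. Within groups r was 0.23 (undisturbed) and 0.73 (sleep-deprived). With the meninges list it was 0.16 and 0.86, and with the hippocampal neuron list -0.46 and -0.63. Whether such tissue contributes to the Nt5e values was not tested.

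The dim Nt5e probe set (1428547_at) had the largest negative difference of all 18. It read 5.28, 5.53 and 5.70 in undisturbed mice and 5.23, 5.41 and 5.50 in sleep-deprived mice. All 8 sleep-deprived arrays lay below the undisturbed mean, although the ranges overlapped. The difference was -0.11 (SE 0.056, 95% interval -0.23 to 0.0048), with an unadjusted p of 0.059 and a limma adjusted p of 0.35. It was not shared by the brightest probe set, with which it had r = -0.24, and the gap between their differences was -0.13 (limma adjusted p = 0.59 over all such pairs). The third probe set (1459023_at, mean level 5.40) gave 0.015 (limma adjusted p = 0.93).

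The intervals of the equilibrative transporters all included 0. Slc29a1, which carries adenosine in either direction along its gradient, read 7.36, 7.52 and 7.61 in undisturbed and 7.27, 7.50 and 7.69 in sleep-deprived mice (1451782_a_at). The sleep-deprived arrays spread to both sides of the undisturbed ones, 4 above their mean and 4 below. The difference was -0.025 (SE 0.056, 95% interval -0.14 to 0.092, limma adjusted p = 0.88).

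Slc29a2, the related carrier, which also takes nucleobases, read 6.44, 6.54 and 6.81 in undisturbed and 6.36, 6.52 and 6.70 in sleep-deprived mice by its brighter probe set (1448257_at). The medians nearly coincided, and the difference was -0.046 (SE 0.054, 95% interval -0.16 to 0.066, limma adjusted p = 0.74). The other probe set (1447748_x_at) gave -0.0034 (SE 0.064, limma adjusted p = 0.99). Undisturbed array 4 was the highest of all 17 in both probe sets, at 6.81 and 6.25, and their deviations from the group means correlated (r = 0.59).

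Of the enzymes that remove intracellular adenosine, Ada had only dim signal. It read 4.17, 4.41 and 4.60 in undisturbed and 4.21, 4.44 and 4.65 in sleep-deprived mice (1417976_at), under the median of the olfactory receptor probe sets, 4.48, in both groups' medians. The difference was 0.075 (SE 0.068, 95% interval -0.066 to 0.22, limma adjusted p = 0.64), which bounds the signal and says little about the transcript.

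Adk, which sets the rate of adenosine clearance, had the brightest probe set of the group. This probe set (1438292_x_at) read 10.72, 10.97 and 11.19 in undisturbed and 10.63, 10.91 and 11.20 in sleep-deprived mice. Sleep-deprived arrays 2 and 8 were the lowest and the highest of all 17, so the sleep-deprived range enclosed the undisturbed one. The difference was -0.050 (SE 0.072, 95% interval -0.20 to 0.099, limma adjusted p = 0.79), so a fall of more than 1.15-fold lay outside the interval. Without the 5 arrays high in choroid plexus markers it was 0.014 (limma adjusted p = 0.99).

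The second Adk probe set (1416319_at) read 9.62, 9.76 and 9.88 in undisturbed and 9.49, 9.73 and 9.89 in sleep-deprived mice. Its lowest and highest arrays were again sleep-deprived 2 and 8, and its difference was -0.026 (SE 0.052, 95% interval -0.13 to 0.082, limma adjusted p = 0.86). The 2 probe sets' deviations from the group means correlated at r = 0.50. The other 4 Adk probe sets had mean levels of 3.95 to 5.10, within dim signal, and differences of -0.022 to 0.043.

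Probe sets of the same gene were compared directly through their difference within each array. Each of the 11 member pairs set a probe set against the brightest of its gene. None passed the test for a different response to sleep deprivation (smallest limma adjusted p = 0.52). Of 16752 such pairs on the array 1.30% passed, so finding none among so few is near that background. The intervals of the member pairs reached from -0.32 (Entpd1 1453586_at) to 0.26 (Adk 1449641_at), so differing responses are not excluded. The widest gap was -0.14, between the second and the brightest probe set of Entpd1.

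Although Adk did not separate the groups, it varied between animals together with astrocyte markers. After removing group means, its brightest probe set correlated with the mean of 14 astrocyte markers at r = 0.79 over 17 arrays (permutation p = 0.00039) and rho = 0.77 (permutation p = 0.0007). Adjusted over the 56 relations between the 7 genes and 8 marker lists, these were 0.022 and 0.039, and no other relation passed (next adjusted p = 0.28 for r). Within groups r was 0.64 (undisturbed) and 0.85 (sleep-deprived). Without sleep-deprived arrays 2 and 8, the farthest on the astrocyte axis, r of the same centred values was 0.59. A permutation test with group means taken anew over the remaining arrays gave p = 0.025, not adjusted over the 56 relations. The second Adk probe set gave r = 0.62.

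Of the 14 astrocyte markers 11 correlated positively with Adk. The closest were Slc1a3, a glutamate transporter (r = 0.89), Gja1, the main gap junction protein of astrocytes (r = 0.73), and the water channel Aqp4 (r = 0.66). Gli3 (r = -0.16), Gfap (r = -0.11) and Aldh1l1 (r = -0.0063) did not follow it. Bright genes in general moved with both measures: the mean of 2630 other genes at a level of 10 or more correlated at r = 0.66 with Adk and at 0.66 with the astrocyte mean. Of those genes 1.83% had a higher r with the astrocyte mean than Adk had, and 2.81% had a higher r with Adk than the astrocyte mean had. How much of the relation the arrays' shared brightness accounts for was not tested. The astrocyte mean itself ran from 10.39 to 10.47 in undisturbed and from 10.29 to 10.51 in sleep-deprived mice, and 1 of its 14 genes, Gjb6, another gap junction gene, rose with sleep deprivation by 0.36 (limma adjusted p = 0.0082 over genes). In the other lists, the endothelial transporter Slco1a4 and receptor Tek fell (2 of 13, by 0.32 and 0.26), as did the oligodendrocyte genes Aspa and Opalin (2 of 13, by 0.32 and 0.41), while 0 of 13 microglia, 0 of 14 meninges, 0 of 14 choroid plexus, 0 of 16 striatal and 0 of 17 hippocampal neuron markers passed (limma). At an unadjusted p under 0.05 the last 5 lists had 3, 0, 1, 2 and 4 genes. Among all genes 3.97% passed and 18.6% had an unadjusted p under 0.05, so lists of this size with 0 calls are near the background.

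**Figure D3:**
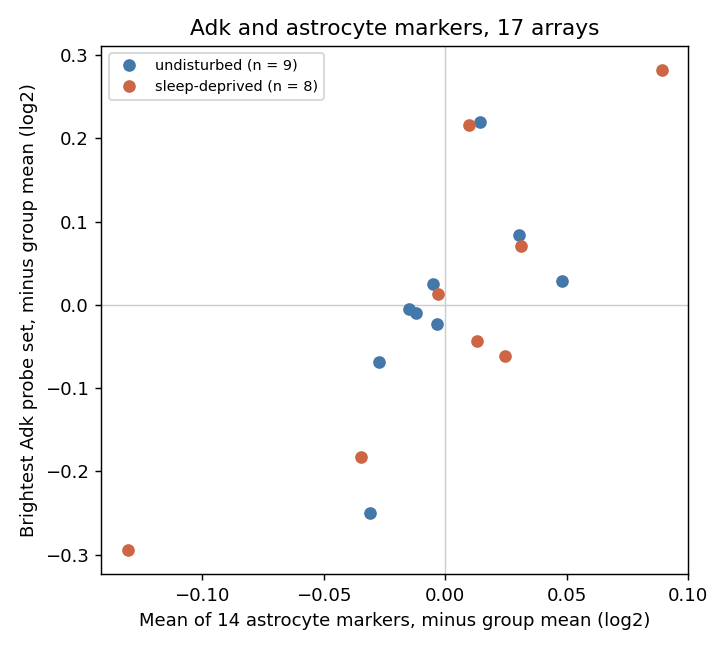
Brightest Adk probe set (vertical axis) against the mean of 14 astrocyte markers (horizontal axis), both in log2 signal after subtracting the mean of the array's group. Each point is 1 of 17 animals, blue for undisturbed and orange for sleep-deprived. The points rise together (r = 0.79), and the outermost at either end are sleep-deprived arrays 2 and 8.

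The genes most like each member over the 17 arrays were listed from 12272 genes above dim signal, by r after removing group means. With Adk these were Dnajc14 (r = 0.93), Rheb (0.91) and Fam126b (0.91). With Nt5e they were Mmp7 (0.91), Pex11g (0.90) and Tnfrsf4 (0.89), and with Slc29a1 Plpp2 (0.85), Adam33 (0.83) and Tube1 (0.82). Slc29a2 was nearest to Stac (0.88), Sgsm3 (0.81) and Itpk1 (0.76), and Entpd1 to Dusp19 (0.83), Layn (0.81) and Pdia4 (0.79). Adora3, with signal at the dim edge, reached 0.78 with Hspb2, Tmem97 and Prdm11. None of these 18 genes differed between the groups (limma adjusted p of 0.068 or more over genes). Among the members themselves the closest were Nt5e and Slc29a1 (r = 0.70) and Nt5e and Entpd1 (r = 0.55). All of these are the highest of many values and describe these arrays only.

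Of 87 other measured genes of adenosine and purine handling, in 5 lists, 5 passed over all genes (5.75%, against 3.97% of all genes), 2 higher and 3 lower. A further look at unadjusted p-values found 23 of the 87 under 0.05, against 18.6% of all genes. In the 3 smaller lists, 0 of 14 other genes of nucleotide breakdown at the cell surface, 0 of 10 other transporters and ATP release genes and 0 of 15 receptors for ATP and UTP passed (limma), counts near the background for lists of that size. At an unadjusted p under 0.05 these lists had 3, 0 and 7 genes. For the receptors, 7 of 15 is a larger share than the 18.6% of all genes, and this excess was not tested. Only 9 of the 15 receptors lay above dim signal. Some genes of these lists passed under other settings. P2ry1 did with quantile normalization and with cyclic loess (both -0.16, limma adjusted p = 0.047), P2rx1 by exact rank sums (0.13, adjusted p = 0.037), and Entpd8 without sleep-deprived array 4 (0.25, limma adjusted p = 0.036).

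Intracellular purine metabolism had 3 called genes of 25 (12%, against 3.97% of all genes) and 8 at an unadjusted p under 0.05, with a list median of -0.024 beside 0.0016 for all genes. Ak4, a mitochondrial adenylate kinase, read 9.62, 9.69 and 9.82 in undisturbed and 9.81, 9.94 and 10.09 in sleep-deprived mice. The ranges touched only at the edge, and it rose by 0.22 (SE 0.043, 1.17-fold, limma adjusted p = 0.0040). Of its 5 probe sets the 3 brightest gave 0.18 to 0.22, and the other 2 gave 0.010 and 0.12. Adal, an adenosine deaminase-like enzyme that acts on methylated AMP, rose by 0.21 (SE 0.050, limma adjusted p = 0.019), from 7.44, 7.55 and 7.74 to 7.66, 7.77 and 7.93. Its 3 probe sets gave 0.21, 0.20 and -0.0079, and the call was lost with the most variable of them (0.20, limma adjusted p = 0.073), as was that of Ak4 (0.19, limma adjusted p = 0.093). Adssl1, which makes adenylosuccinate on the way from IMP to AMP, fell by 0.21 (SE 0.049, limma adjusted p = 0.016), from 7.84 ± 0.070 (SD, n = 9) to 7.63 ± 0.12 (SD, n = 8). In each of the 3 all 8 sleep-deprived arrays lay on one side of the undisturbed mean, which is no further support for genes picked because they passed.

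Among 23 G proteins and partners through which adenosine receptors act, 2 fell (8.70%, against 3.97% of all genes). At an unadjusted p under 0.05 there were 5, and the list median was -0.055 beside 0.0016 for all genes. All 23 lay above dim signal. Quantile normalization moved Kcnj3, Gnb5 and Gnaq up to -0.28, -0.10 and -0.10, and the dim P2rx1 down from 0.13 to 0.10. Whether a group shift that depends on signal level contributes to the list median was not tested. Kcnj3, a subunit of the potassium channel opened by inhibitory G proteins, went from 10.08 ± 0.10 (SD, n = 9) to 9.76 ± 0.17 (SD, n = 8), 1.25-fold lower (limma adjusted p = 0.0053), with differences of -0.32, -0.24, -0.083 and -0.0029 over its 4 probe sets. Its call was lost with the mean of the probe sets (-0.16, limma adjusted p = 0.10) and with the most variable one, the last of the 4. Gnb5, the G protein beta subunit that pairs with RGS proteins, read 10.35, 10.41 and 10.49 in undisturbed and 10.22, 10.27 and 10.34 in sleep-deprived mice. Its groups did not overlap, which held for 0.486% of all probe sets, and it fell by 0.14 (SE 0.037, limma adjusted p = 0.032). Gnb5 is described because it passed, so the separation of its groups is no further support. The Gnb5 call is marginal: it was lost on leaving out any 1 of 9 arrays, undisturbed 1, 2, 4, 6 or 9 or sleep-deprived 3, 5, 6 or 7, with a limma adjusted p of at most 0.064. It was also lost with quantile normalization (-0.10, limma adjusted p = 0.10), cyclic loess (-0.10, 0.096), the choroid plexus covariate (-0.13, 0.060), the mean of its probe sets (-0.082, 0.17) and the most variable probe set (-0.14, 0.061). Without the 5 arrays high in choroid plexus markers, where 7 and 5 animals remained, only the Ak4 call of the 5 was kept (0.26, limma adjusted p = 0.026), while Adal, Adssl1, Kcnj3 and Gnb5 had differences of 0.25, -0.25, -0.25 and -0.11.

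The nearest genes that did not pass in each list had these differences, with limma adjusted p-values over genes. At the surface they were Entpd2 at -0.10 (0.19) and Entpd8 at 0.19 (0.21). Inside the cell Ak5, an adenylate kinase abundant in brain, was at -0.17 (0.065) and Nt5c1b at 0.14 (0.099). Slc17a9, which loads ATP into vesicles, was at 0.093 (0.32), and the concentrative transporter Slc28a3 at 0.075 (0.59). The ATP receptors P2rx1 and P2ry1 were at 0.13 (0.070) and -0.13 (0.15), and the receptor partners Actn2 and Gnaq were both at -0.14 (both 0.18). The signals of Entpd8, Nt5c1b, Slc28a3, P2rx1 and P2ry1 were within the dim reference, so their differences say little about the transcripts.

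**Figure D4:**
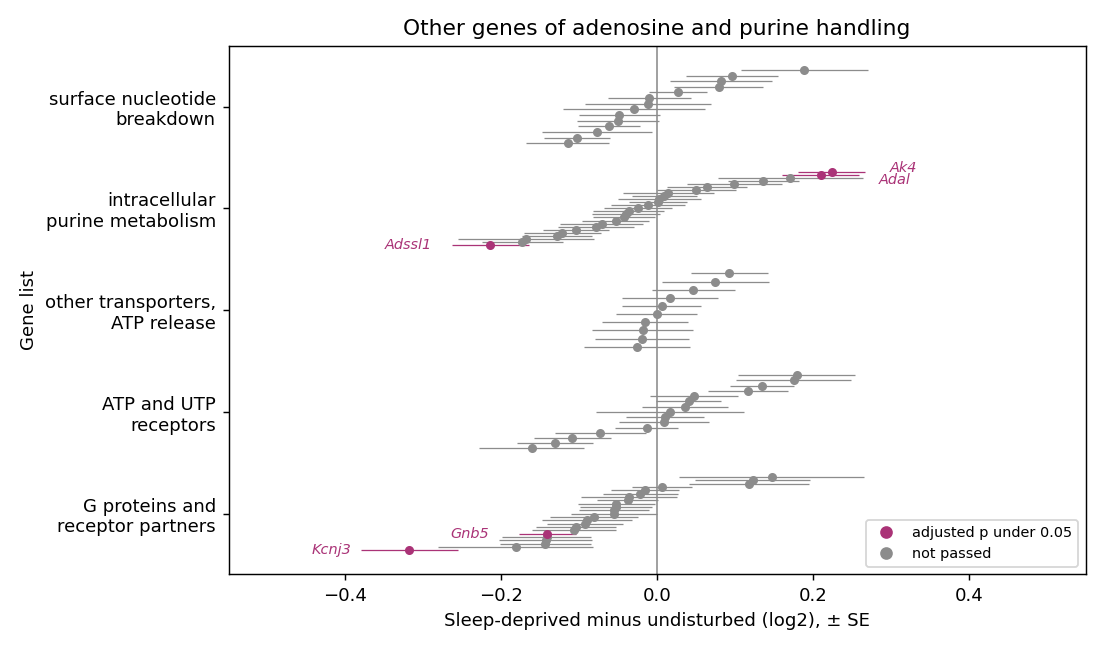
Difference between sleep-deprived and undisturbed means (log2, horizontal axis) with its SE for 87 genes in 5 lists (vertical axis), sorted within each list. Purple points passed an adjusted p of 0.05: Ak4 and Adal were higher and Adssl1, Kcnj3 and Gnb5 lower.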

How the data were processed

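Hippocampal RNA of 17 mice was measured on Affymetrix mouse arrays, 1 array per animal. Each deposited value is a log2 signal of 1 probe set on 1 array, made by the authors with RMA and the affy package, per the submitters' processing notes, which name no version or order of steps in the form used here. Base 2 was taken from the values' range, 2.90 to 14.6. RMA aligns probe intensities between arrays before it summarises them, so a shift common to most genes may not show, and it compresses differences of dim probe sets; the summarised arrays kept medians of 6.13 to 6.22. Arrays have no depth, and their number limits precision.

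Groups came from the sample titles. Of 45101 probe sets, 64 controls were left out. Symbols came from the platform annotation (34945 with 1 symbol, 932 with several, 9160 with none), and 34741 matched a RefSeq table (GRCm38.p6), with 0 symbols changed. A group mean model was fitted with limma 3.58.1 in R 4.3.3 over 45037 probe sets, over 18193 genes (brightest probe set), and over 16752 within-gene pairs, each with Benjamini-Hochberg adjustment at 0.05. The fit was tested on simulated data. Correlations used group-centred values and 100000 two-sided permutations within groups.

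Members, gene lists and tests were chosen with earlier results of these data known. Named genes were all members, every called gene and the 2 next smallest p-values in each purine list, and the 3 genes most correlated with each member above dim signal, besides marker genes. Markers of 8 tissues or cell types, covering striatum, choroid plexus, microglia, endothelium, astrocytes, oligodendrocytes, meninges and hippocampal neurons, were measured beside them. No batch or scan date was used. Alternatives were other normalizations, filters on mean signal, variance models, array weights, covariates, a rank-sum test, thresholds, probe set rules, a replicate block and each array left out. Leaving out arrays with a choroid plexus marker mean above 6.5 was chosen after seeing the data.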

Additional observations from a re-analysis of the deposited data

Results flagged for a closer look

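Of 36 group and probe set combinations examined for a sample far from the rest, 2 stood out, and chance gives about 1 in 20. Both were in the dimmer Slc29a2 probe set (1447748_x_at). Undisturbed array 4 was highest at 6.25, with the next undisturbed array at 6.03, and sleep-deprived array 5 was lowest at 5.64, with the next at 5.92. Sleep-deprived array 5 also had the highest 3' minus 5' control signal of all arrays, 0.42.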

How the results depend on the processing

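No member probe set passed under any of 15 other settings or on leaving out any of the 17 arrays, with adjusted p-values of 0.17 or more. No member gene passed under any of 17 other settings or on leaving out any single array. Arrays with the same replicate number were mostly not the most alike. Their deviations correlated at -0.068 to 0.39 over 8 pairs, with own number best in 1 of 8. These values cannot tell whether the animals were paired. With a replicate block 0 member probe sets, 0 member genes and 7 related genes passed (limma), with Ak5 (-0.17) and Gnaq (-0.16) added. Signs of small differences were not stable, and 12 of 18 probe sets turned at least once. Quantile normalization and cyclic loess turned Adk 1416319_at (0.0077 and 0.0086), Adk 1446675_at (-0.0069 and -0.0072), Adk 1449641_at (-0.0031 and -0.0043) and Nt5e 1459023_at (-0.016 and -0.021). Median centring turned Nt5e 1422974_at (-0.0036) and 1459023_at (-0.0038), and array weights turned Nt5e 1459023_at (-0.0016) and Slc29a2 1447748_x_at (0.0023). Slc29a2 1447748_x_at also turned with the RNA quality covariate (0.0044) and the choroid plexus covariate (0.0072), the latter turning Adk 1446068_at (0.013) and Nt5e 1422974_at (-0.024) too. Without the 5 arrays high in choroid plexus markers the turned values were Adk 1438292_x_at 0.014, 1446675_at -0.027, 1446068_at 0.0042 and 1449641_at -0.031, Nt5e 1422974_at -0.076, Slc29a2 1447748_x_at 0.068 and Entpd1 1423326_at -0.047 and 1450939_at -0.066. On leaving out single arrays the ranges that crossed 0 were Adk 1446068_at -0.068 to 0.027, 1449641_at -0.012 to 0.054, 1416319_at -0.048 to 0.0090 and 1446675_at -0.0075 to 0.046, Nt5e 1422974_at -0.024 to 0.052 and 1459023_at -0.013 to 0.034, Slc29a2 1447748_x_at -0.023 to 0.044, Slc29a1 -0.053 to 0.0074 and Entpd1 1453586_at -0.069 to 0.023. The count of related genes was 2 at an adjusted p of 0.01, 8 at 0.10, 3 with the mean of all probe sets, 1 with the most variable probe set, 1 without the 5 arrays high in choroid plexus markers, and 4 to 6 without single arrays. An equal count can hold other genes: with quantile normalization and cyclic loess it stayed at 5, with P2ry1 gained and Gnb5 lost. Apart from the thresholds, the cause of these changes was not tested. That holds also where fewer arrays remained. Signal near that of silent genes limits 9 of the 18 probe sets, those of Ada, 1 each of Adora3 and Entpd1, 2 of Nt5e and 4 of Adk.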
